A study of Mus musculus with 9 samples.

Results

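The 3' untranslated regions (3' UTRs) described here are those of annotated mouse genes whose deposited 3' UTR length is under 500 bases and which received at least 1 iCLIP count in any of 9 libraries. There were 1618 such short 3' UTRs. They make up 33.1% of the 4893 genes with a 3' UTR under 500 bases, 14.9% of the 10848 3' UTRs with a count, and come from tables of 22442 genes. Length and a count in any library chose them, so that they were counted somewhere is not a result. iCLIP crosslinks RNA to protein with ultraviolet light, recovers the protein with an antibody and sequences the RNA attached to it. The study asked which RNAs are bound by 2 forms of Chtop, with or without exon 5. All libraries came from N2a Flp-In rtTA cells, a mouse neuroblastoma line that makes a cDNA under doxycycline (2 µg/mL for 24 hours), crosslinked at 254 nm and 0.15 J/cm2. The protein recovered was therefore the FLAG-tagged product of an induced cDNA, not the cells' own Chtop. Anti-FLAG immunoprecipitates of FLAG-Chtop with exon 5 gave 3 libraries, and those of FLAG-Chtop without exon 5 gave 3. The 3 size-matched inputs were each taken from 2% of a lysate that went through the gel without the antibody. These lysates were of different lines: that of input replicate 1 expressed FLAG-Chtop lacking exon 5, that of replicate 2 the form with the exon, and that of replicate 3 FLAG-GFP.

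Chtop is a nuclear RNA-binding protein with arginine- and glycine-rich stretches. It belongs to the TREX complex, which couples transcription and processing of mRNA to export from the nucleus and passes mRNA on to the export receptor Nxf1. A 3' UTR begins after the stop codon, ends at the poly(A) site, and is the part of the mRNA where many proteins and microRNAs bind to set stability, localisation and translation. Short 3' UTRs are common in genes whose products are needed in most cells, among them genes of the ribosome, the proteasome and the respiratory chain.

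Library totals lay between 624062 and 1844970 counts for the 6 isoform libraries and between 75504 and 173342 counts for the inputs. On the scale used for all levels here (CPM, counts relative to library size after TMM scaling of the gene totals), 3 counts were worth 2.10 to 5.51 CPM in an isoform library and 16.3 to 21.1 CPM in an input. Low inputs therefore limit each comparison with input. Of 19 neuroblastoma and sympathetic neuron markers, the tables name 12, and all 12 had counts, summing to 7173 to 14320 CPM in the isoform libraries and 2867 to 6794 CPM in the inputs. Of 30 markers of other cell types, 16 are named and 6 had a count, with sums of 9.80 to 43.5 CPM and 0 to 77.5 CPM. Chtop itself, whose 3' UTR of 2557 bases puts it outside the short class, had 169, 114 and 259 CDS counts with exon 5, 107, 143 and 203 without exon 5, and 59, 4 and 0 in the inputs. The deposited tables do not separate the induced cDNA from the cells' own gene.

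The short 3' UTRs ranged from 3 to 499 bases, with a median of 309 bases. Their coding sequences (CDS) had a median of 1290 bases, against 1476 bases for genes with a counted 3' UTR of 500 bases or more and 936 bases for the 3275 genes with a short 3' UTR and no 3' UTR count. The share of genes with any 3' UTR count was 71.3% at 500 bases or more, far above the 33.1% of the short class. In all, 1491 of the 1618 genes also had a CDS count, and 1174 carry a symbol in the deposited tables.

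Most short 3' UTRs were seen in only a few libraries. A count was found in 1 library for 480 of them, in 2 or 3 libraries for 565, in 4 to 6 for 487, in 7 or 8 for 74 and in all 9 for 12. The isoform libraries each held counts in 545 to 959 short 3' UTRs, and the inputs in 158, 299 and 79. Counts in both isoforms were found for 871 of them, in libraries without exon 5 and not with it for 490, in those with exon 5 and not without it for 203, and in inputs only for 54. The groups differ in depth, and its part in these numbers was not tested. No input count was found for 1198 of the 1618.

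Counts were also concentrated. The median short 3' UTR had 19 counts over the 9 libraries, against 75 for longer 3' UTRs, and 100 of the 1618 held 41.2% of the class's 77515 counts. Among the 402 short 3' UTRs with 50 or more counts, 152 (37.8%) had over 50% of them in a single library, compared with 15.1% of 5493 longer 3' UTRs. Of these 152, the deepest library (without exon 5, replicate 3) was the dominant one for 62. Restricted to 50 to 150 counts, the shares were 42.2% of 289 short and 23.9% of 2401 longer 3' UTRs, whose median totals were 76 and 87 counts. Removal of duplicate reads is not described in the labels, and the part of amplification in these concentrations was not tested.

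**Figure D1:**
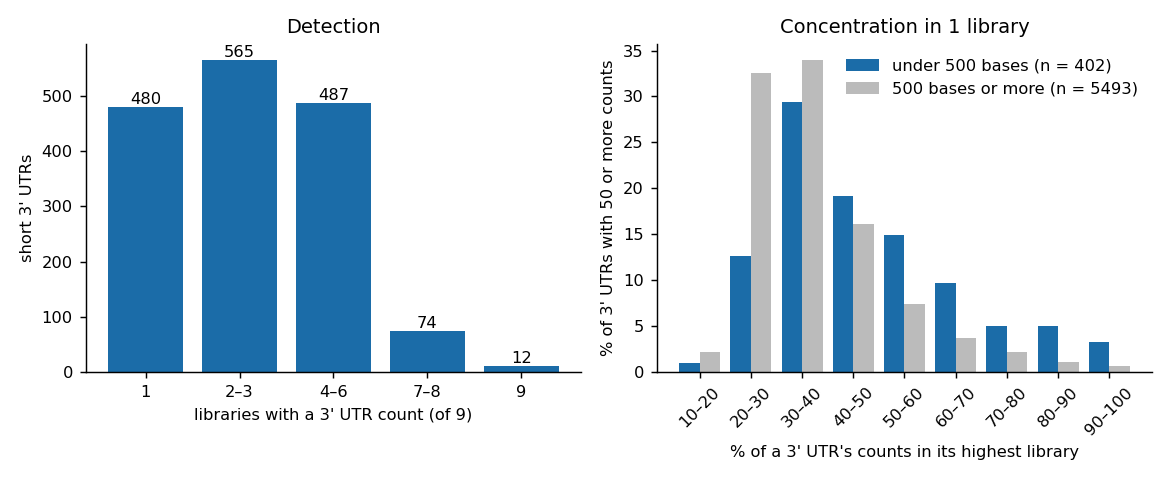
Left, number of short 3' UTRs (vertical axis) by the number of libraries in which they had a count; 480 had a count in 1 library and 12 in all 9. Right, among 3' UTRs with 50 or more counts, the percentage (vertical axis) by the share of a 3' UTR's counts that fell in its highest library, for 402 short (blue) and 5493 longer (grey) 3' UTRs; the blue bars exceed the grey ones from 40% upwards.

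In the isoform libraries the short 3' UTRs held a smaller share of their genes' counts than in the inputs. With exon 5, the short class received 9016, 8643 and 13491 3' UTR counts in the 3 replicates, beside 58432, 62851 and 99920 CDS counts in the same genes. Without exon 5 there were 8218, 10975 and 19281 3' UTR counts and 47677, 75617 and 135155 CDS counts. The inputs had 2657, 3471 and 1763 3' UTR counts and 7888, 11556 and 4515 CDS counts. As a share of the counts in both parts, the 3' UTR took 12.5% ± 0.80 (SD, n = 3) with exon 5, 13.3% ± 1.23 (SD, n = 3) without exon 5 and 25.5% ± 2.50 (SD, n = 3) in the inputs. Every input lay above every isoform library, and the isoform groups overlapped. For scale, the 3' UTRs make up 15.1% of the summed 3' UTR and CDS bases of these genes.

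Per kilobase, the same counts separate the 2 gene parts. Summed over the class, 3' UTR density was 25.7 ± 0.55 CPM per kilobase with exon 5, 28.2 ± 2.32 without exon 5 and 32.1 ± 6.62 in the inputs (SD, n = 3 each), and the input range of 25.3 to 38.5 held 5 of the 6 isoform libraries. CDS density of the same genes was 32.0 ± 1.83 and 32.6 ± 1.33 CPM per kilobase in the isoform groups and 17.1 ± 5.62 in the inputs (SD, n = 3 each), with no overlap between inputs and isoform libraries. Which part carries the difference depends on the scaling. The density ratio, 3' UTR over CDS, was 0.871, 0.776 and 0.762 with exon 5, 0.973, 0.819 and 0.805 without exon 5, and 1.90, 1.70 and 2.20 in the inputs. This ratio does not depend on how libraries are scaled. On unscaled totals, the short 3' UTRs held 1.06% ± 0.078, 1.15% ± 0.145 and 2.24% ± 0.204 of library counts with exon 5, without exon 5 and in the inputs (SD, n = 3 each). The CDS of the same genes held 7.45% ± 0.070, 7.50% ± 0.159 and 6.56% ± 0.540 (SD, n = 3 each), so that without TMM the larger gap was in the 3' UTR.

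For longer 3' UTRs too the inputs had the highest ratios. In 2 broad classes of longer 3' UTRs, all groups had lower ratios than in the short class. For 3' UTRs of 500 to 4000 bases the mean density ratio was 0.559, 0.546 and 1.37 in the libraries with exon 5, without exon 5 and in the inputs, and over 4000 bases it was 0.299, 0.275 and 0.928. The short class had the highest ratio of these 3 classes in each of the 9 libraries. The level was not particular to it. 3' UTRs of 500 to 999 bases alone had mean ratios of 0.796, 0.837 and 3.34 in the 3 groups, against 0.803, 0.866 and 1.93 in the short class. Without Lars2, which held most input counts of that class, its ratios were 0.766, 0.797 and 1.56. Since the class was chosen with earlier results of these data known, these sums carry no p-value. They also rest on 3' UTRs that had a count. With all 4893 short genes included, the ratios were 0.712, 0.770 and 1.72. Over all genes of 500 to 999 bases they were higher, at 0.7525, 0.7938 and 3.13. The input value of 3.13 still includes Lars2, with 54.1% of the input counts of that class. Without Lars2 it was not computed, so no order is given for the inputs.

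**Figure D2:**
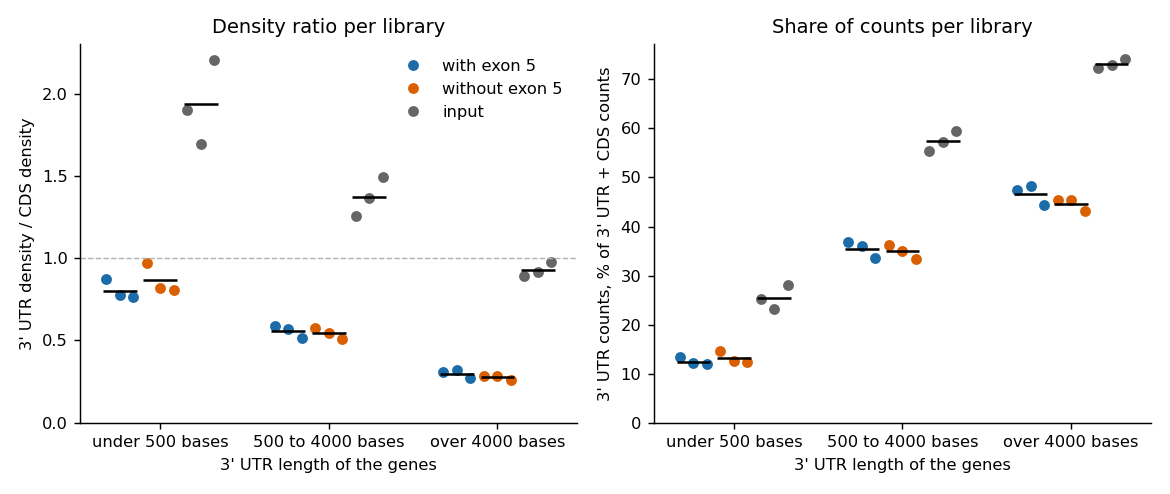
Each point is 1 library and each line the mean of 3. Left, density of 3' UTR counts over density of CDS counts in the same genes (no unit), by 3' UTR length class; the dashed line marks equal density. Right, 3' UTR counts as a percentage of 3' UTR and CDS counts. The inputs (grey) lie above the isoform libraries in each class, and the short class has the highest density ratios and the lowest shares.

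Gene by gene, the short 3' UTR was more often the denser part. Of 929 short 3' UTRs with 10 or more isoform counts in each part, 594 (63.9%) had more isoform counts per base in the 3' UTR than in the CDS, with a median ratio of 1.31, against 2348 of 6646 (35.3%) and a median of 0.709 for longer 3' UTRs. In the inputs the same held for 84 of 110 short (76.4%) and 717 of 1505 longer 3' UTRs (47.6%). The median gene and the class sum thus lie on different sides of equal density in the isoform libraries. A minimum of 10 counts is harder to reach in a short region than in a long one, so genes with a sparse short 3' UTR are missing from these medians.

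Within the short class, the density of counted 3' UTRs showed no steady trend with length above 100 bases. The mean density with exon 5 was 25.9, 23.6, 28.6 and 22.9 CPM per kilobase in the classes of 100 to 199, 200 to 299, 300 to 399 and 400 to 499 bases, and without exon 5 it was 31.2, 25.4, 29.2 and 27.9. In the 68 counted 3' UTRs of 1 to 99 bases, density with exon 5 was 79.2 ± 64.1 CPM per kilobase (SD, n = 3). Without Rpl22l1 it was 36.3 ± 12.3 (SD, n = 3). Without exon 5 it was 40.2 ± 23.3 (SD, n = 3). Among counted 3' UTRs, this shortest class had the highest mean in both isoform groups also with Rpl22l1 left out. In replicate 1 without exon 5, however, its density of 16.0 was below that of every other short class. A count was found for only 10.5% of its genes, against 46.5% at 400 to 499 bases. Over all genes, counted or not, densities from the shortest class up were 11.5, 6.20, 8.75, 12.1 and 10.7 with exon 5. Without exon 5 they were 5.855, 7.48, 9.42, 12.3 and 13.0, a rise with length. Input densities of the counted 3' UTRs in the same 5 classes, from the shortest, were 36.4, 39.9, 22.3, 27.9 and 39.5. Each is a mean of 3 libraries, with SDs of 3.49 to 32.2. Among counted 3' UTRs, the isoform densities from 1000 bases on fell below those of every short class, to 11.5 and 9.98 over 4000 bases. The share of genes with a count rose with length, to 87.8% over 4000 bases. Over all genes, 3' UTRs of 1000 to 1999 bases had 14.1 and 14.7 CPM per kilobase with and without exon 5, above every short class. Those over 4000 bases had 10.1 and 8.82, within the range of the short classes. In the neighbouring class of 500 to 999 bases, 54.1% of the input counts came from Lars2. With Lars2, the input density ratio of that class was 3.34, and without it 1.56, against 1.93 in the short class.

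**Figure D3:**
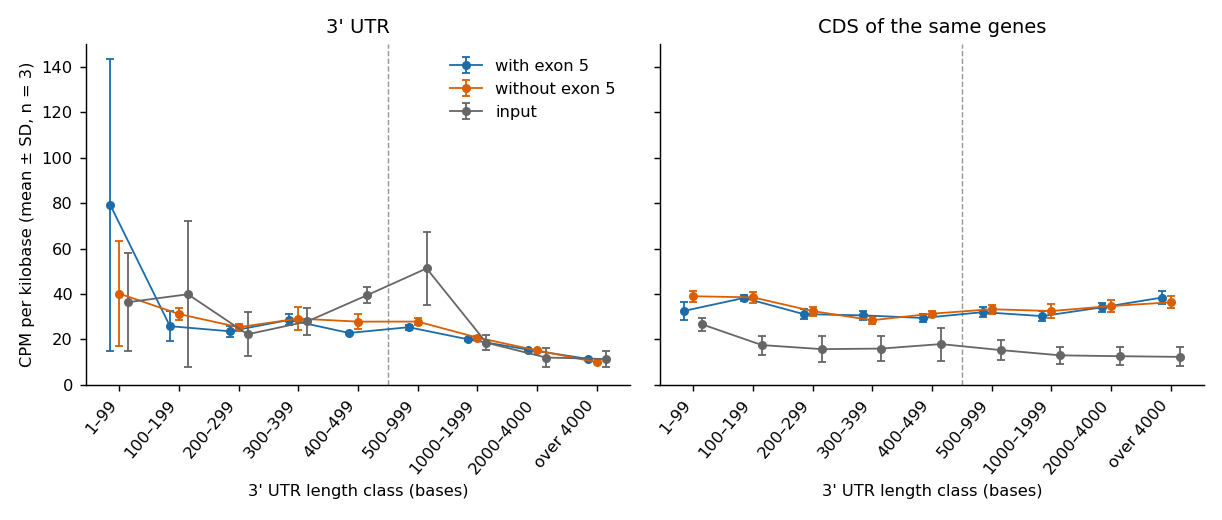
Mean CPM per kilobase (vertical axis, ± SD over 3 libraries) by 3' UTR length class in bases, for the 3' UTR (left) and the CDS of the same genes (right). Only genes with a 3' UTR count are included. The dashed line separates the short classes from those of 500 bases or more. In the CDS panel the inputs lie below both isoform groups in each class, and the wide bar with exon 5 at 1 to 99 bases includes 706 counts of Rpl22l1 in 1 library.

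The leading 10 short 3' UTRs by CPM over the 6 isoform libraries were Eif4g1, Sptan1, Snrnp70, Prph, Unc93b1, Eef2, Hnrnpl, Rpl22l1, Gprasp1 and Eftud2. Positions below are gene spans in GRCm38.p6, the assembly of mm10.

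Eif4g1, on chromosome 16 from 20672720 to 20692883, encodes the scaffold of the cap-binding initiation complex and has a 3' UTR of 456 bases. Its 3' UTR had 166, 558 and 168 counts with exon 5, 92, 165 and 365 without exon 5 and 9, 42 and 0 in the inputs. Isoform libraries were high throughout, and in CPM replicate 2 with exon 5 stood highest while the highest input reached the lower isoform values. The log2 fold change over input was 2.06 ± 1.16 (SE) with exon 5, with an adjusted p of 0.254 by edgeR's quasi-likelihood test after Benjamini-Hochberg adjustment. Per kilobase, the isoform mean was 661 CPM in the 3' UTR and 237 CPM in the CDS.

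Eef2, which moves the ribosome along the mRNA, lies on chromosome 10 from 81176631 to 81182509 and has a 3' UTR of 419 bases. It received 127, 79 and 114 counts with exon 5, 77, 97 and 128 without exon 5 and 37, 12 and 36 in the inputs. In CPM the inputs (180 ± 101, SD, n = 3) overlapped both isoform groups (134 ± 41.5 and 115 ± 26.0, SD, n = 3 each). Eef2 thus had counts in every library, with no group set apart.

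Snrnp70, the U1 snRNP protein that helps define the 5' splice site, lies on chromosome 7 from 45376454 to 45395742. Its 3' UTR of 391 bases had 104, 70 and 184 counts with exon 5, 101, 82 and 110 without exon 5 and 16, 1 and 0 in the inputs. In CPM, input replicate 1 reached the range of the libraries without exon 5, while all 3 inputs lay below those with exon 5. The log2 fold changes over input were 2.04 ± 1.26 and 1.80 ± 1.25 (SE), with adjusted p of 0.304 and 0.372 in edgeR's quasi-likelihood test.

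Among the other splicing genes, Hnrnpl, a splicing regulator of the hnRNP family, had 21, 96 and 190 counts with exon 5, 95, 88 and 86 without exon 5 and 38, 8 and 0 in the inputs. Eftud2, a GTPase of the U5 snRNP with a 3' UTR of 213 bases, had 119, 5 and 5 counts with exon 5 and 30, 150 and 113 without exon 5. Its 3' UTR had no input count, which puts the isoform means at least 3.28-fold and 5.60-fold above the level of 3 counts per input. The mean with exon 5 rests on replicate 1. In CPM, replicates 2 and 3 with exon 5, at 5 counts each, lay below that input level. Neither gene's 3' UTR passed the test against input, with adjusted p of 0.0693 to 0.915 in edgeR's quasi-likelihood test.

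Prph encodes peripherin, an intermediate filament of peripheral neurons that N2a cells also make, and lies on chromosome 15 from 99053579 to 99058978. Its 3' UTR of 310 bases had 122, 82 and 69 counts with exon 5, 135, 97 and 63 without exon 5 and 17, 45 and 16 in the inputs. In CPM the 3 groups overlapped, at 119 ± 54.8, 135 ± 104 and 153 ± 79.7 (SD, n = 3 each). These means lie within 1 SD of each other.

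Several of the top ranks rested on a single library. Sptan1, the non-erythroid spectrin alpha chain, had 607 counts in replicate 1 without exon 5 and between 0 and 69 in the other 8 libraries, so that 71.1% of its counts came from 1 library. Unc93b1, which carries Toll-like receptors to endosomes, had 408 of its counts in that same library, 4 and 5 in 2 others and 0 in the remaining 6. Rpl22l1, a paralogue of a large-subunit ribosomal protein with a 3' UTR of 96 bases on chromosome 3, had 706 counts in replicate 3 with exon 5 and 0 in the 8 others. Uqcrc2, a core subunit of respiratory complex III, had 360 counts in that library, 48 in replicate 3 without exon 5 and 0 elsewhere. These 4 values do not describe an isoform, since the other replicates of the same group were far lower.

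Nop56, a core protein of box C/D snoRNPs, had a 3' UTR of 93 bases and was among the 5 densest, at 562 ± 557 CPM per kilobase over the isoform libraries (SD, n = 6). Its counts were 0, 30 and 66 with exon 5, 0, 60 and 198 without exon 5 and 0 in all inputs. Gprasp1, a receptor-sorting protein encoded on chromosome X, had 48, 106 and 171 counts with exon 5, 71, 25 and 83 without exon 5 and 0 in all inputs. The Gprasp1 3' UTR was at least 6.84-fold above the input level of 3 counts with exon 5 and at least 3.93-fold above it without exon 5. With adjusted p of 0.0525 and 0.0555 in edgeR's quasi-likelihood test, it just missed the threshold of 0.05.

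**Figure D4:**
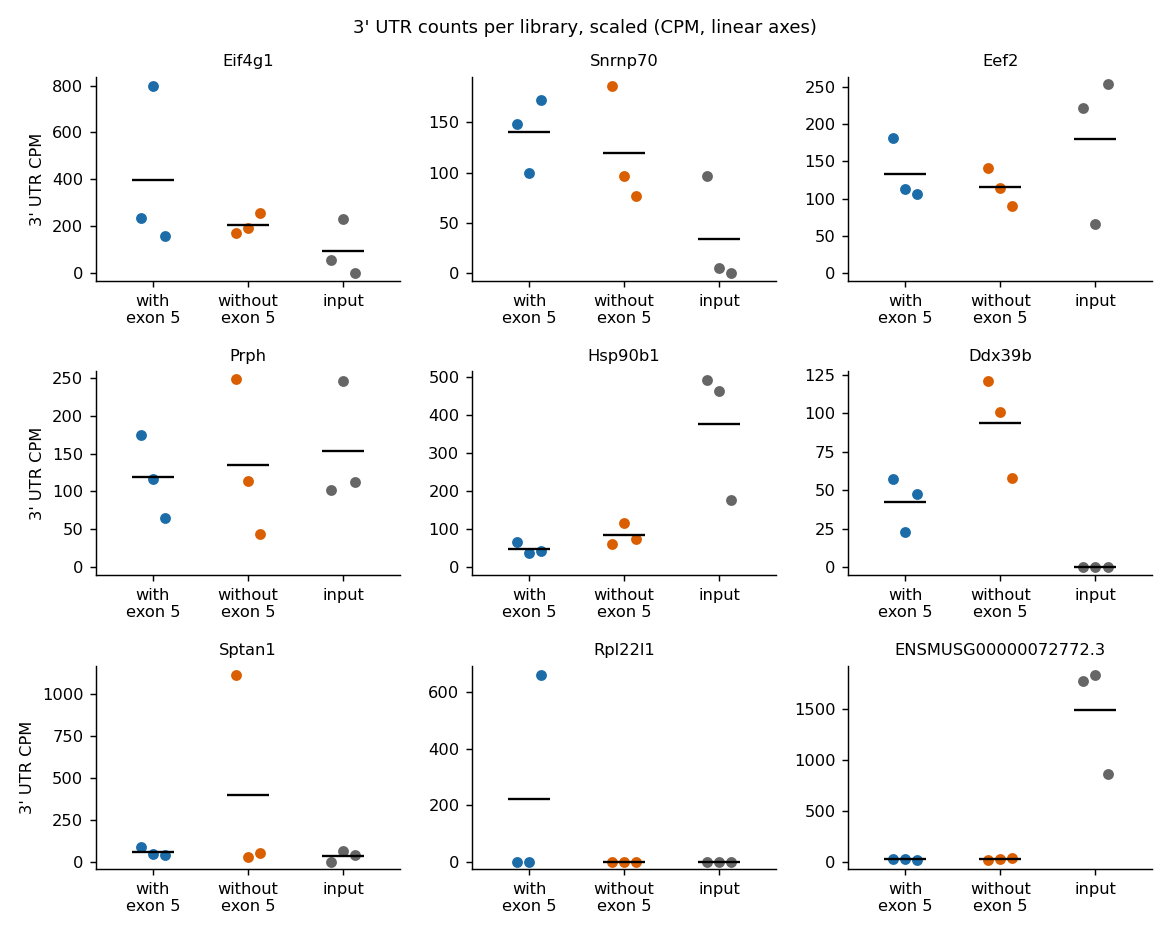
Scaled 3' UTR counts (CPM, linear axes that differ between panels) of 9 short 3' UTRs; each point is 1 library and each line the mean of 3. Eef2 and Prph show overlapping groups, Ddx39b has 0 in all 3 inputs, Sptan1 and Rpl22l1 owe their means to 1 library, and ENSMUSG00000072772.3 is high in the inputs.

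Only 1 short 3' UTR passed the test against input, and it was lower in the immunoprecipitates. ENSMUSG00000072772.3, which has no symbol in the deposited tables, has a 3' UTR of 485 bases and a CDS of 378 bases. Its 3' UTR had 15, 17 and 17 counts with exon 5, 7, 19 and 44 without exon 5, and 297, 338 and 123 in the much shallower inputs. All 3 inputs stood far above all 6 isoform libraries. On the log2 scale it fell by 6.18 ± 0.86 (SE) in the libraries with exon 5 and by 6.06 ± 0.85 (SE) in those without, with adjusted p of 0.00108 and 0.00127 by edgeR's quasi-likelihood test. The CDS of this gene had 5 counts in input replicate 2 and none elsewhere. This 3' UTR alone supplied 11.2%, 9.74% and 6.98% of the short class's 3' UTR counts in the inputs. Without it, the input density ratio of the class was 1.76 ± 0.27 (SD, n = 3) in place of 1.93 ± 0.26. Leaving out replicate 1 with exon 5 took its adjusted p to 0.0508, and leaving out replicate 1 without exon 5 took it to 0.0587. In the other alternatives it kept its call.

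The test covered 274 of the 1618 short 3' UTRs, those with enough counts to pass the filter of edgeR, within a fit of 5037 3' UTRs. With exon 5, 0 were higher than input where 0.457% of all tested 3' UTRs were, and 1 was lower, where 0.119% of all were. Without exon 5, 0 were higher (1.49% of all tested) and 1 was lower (0.179% of all). At an unadjusted p under 0.05 there were 106 and 107 of the 274, and 1434 and 1421 of all 5037. The median log2 fold change of the 274 was 1.45 with exon 5 and 1.72 without exon 5, against 0.76 and 0.67 over all tested 3' UTRs. Next, 3' UTRs with no count in 1 of the compared groups were set at their bound, or at 0 where no bound could be had. The medians were then 0 for the short class and 0.29 and 0.20 for all, so the higher medians come from regions whose input is 0. The median of 0 is itself such a filled-in value, not an estimate of no change. The filter also keeps a 3' UTR that is high in 1 group only.

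These counts of calls depend on the scaling and the tool. With TMM factors taken within the 3' UTR table, 267 short 3' UTRs were tested. With exon 5, 28 were higher and 6 lower, where 10.13% and 0.562% of all 4984 tested were. Without exon 5, 35 were higher and 2 lower, where 12.28% and 0.381% of all were. That scaling moved the median of all 3' UTRs from 0.76 to 1.37 and from 0.67 to 1.41 on the log2 scale. Of 266 short 3' UTRs tested with DESeq2, 31 were higher and 20 lower with exon 5, where 11.07% and 6.65% of all 5023 were. Without exon 5, 27 were higher and 16 lower, where 10.75% and 5.95% of all were. Without input replicate 1, 2 or 3 there were 13, 26 and 7 calls with exon 5 and 8, 12 and 8 without exon 5. These were calls among 449, 423 and 460 short 3' UTRs tested. Of all tested 3' UTRs, 2.585%, 10.25% and 2.506% were then higher with exon 5, and 1.243%, 1.225% and 1.213% lower. Without exon 5, 2.994%, 10.69% and 2.862% of all were higher, and 1.096%, 1.038% and 1.213% lower.

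After that gene, the highest inputs among named short 3' UTRs were those of Chd8, Hsp90b1, Vim, Ppib and U2af1. Hsp90b1, a chaperone of the endoplasmic reticulum on chromosome 10, had 82, 85 and 25 3' UTR counts in the inputs, 46, 26 and 46 with exon 5 and 34, 100 and 105 without exon 5. In CPM all 3 inputs (377 ± 175, SD, n = 3) were above all 6 isoform libraries (48.6 ± 15.1 and 84.5 ± 29.2, SD, n = 3 each). The difference did not pass, with adjusted p of 0.0774 and 0.146 in edgeR's quasi-likelihood test. Vim, which encodes the intermediate filament vimentin, had 53, 6 and 36 input counts, 17, 9 and 6 counts with exon 5 and 33, 34 and 27 without exon 5. Ppib, a prolyl isomerase of the endoplasmic reticulum, had 22, 8 and 54 input counts and between 0 and 28 in the isoform libraries. By contrast, Chd8, a chromatin remodeller, and U2af1, which recognises the 3' splice site, had all their input counts (209 and 78) in replicate 3.

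The coding sequences of the same genes gave many more calls. Of 839 tested, 115 (13.7%) were higher than input with exon 5 and 14 (1.67%) lower, where 16.3% and 0.876% of all 6505 tested CDS were. Without exon 5, 108 (12.9%) were higher and 8 (0.953%) lower, where 15.9% and 0.461% of all were. The share of higher calls was near that of all genes. Of the 115 higher CDS, 80 had no CDS count in any input, and of the 108, 74 had none. The called genes had long coding sequences, with medians of 2799 and 2802 bases against 1857 bases over the 839 tested.

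The 3' UTRs of genes with a higher CDS mostly leaned the same way where they could be tested, and none passed. Of the 115, 34 had a tested 3' UTR, with a positive log2 fold change in 31 and a negative one in 3. Of the 108, 30 were tested, 28 positive and 2 negative. Both gene parts share the inputs, so these are not separate sets of evidence.

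Examples of genes with a higher CDS were singled out after their values were seen. Carmil3, of the capping protein regulators, had 169, 258 and 386 CDS counts with exon 5, 93, 270 and 410 without exon 5 and 0 in all inputs, at least 17.5-fold and 14.0-fold above the input level of 3 counts. Its CDS passed with adjusted p of 0.00968 and 0.0108 in edgeR's quasi-likelihood test. The 3' UTR of Carmil3, 326 bases long, had 8, 0 and 58 counts, then 7, 28 and 25, and 0 in the inputs. Per kilobase, its isoform means were close, at 65.9 CPM in the 3' UTR and 70.5 CPM in the CDS.

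Snrnp200, the helicase that unwinds U4 from U6 in the spliceosome, had 181, 135 and 161 CDS counts with exon 5, 122, 161 and 262 without exon 5 and 0 in the inputs. Its CDS was at least 10.8-fold above the input level of 3 counts in each isoform group, with adjusted p of 0.0112 and 0.0130 in edgeR's quasi-likelihood test. In its 3' UTR of 242 bases the counts were 0, 8 and 0, then 5, 5 and 0, and 0, 2 and 0 in the inputs. Srgap2, a regulator of neuronal migration, had 57 to 307 CDS counts in the isoform libraries and none in the inputs, whereas its 3' UTR of 202 bases had 6 counts in input replicate 2 and none in any isoform library. Wdr62, a spindle pole protein, had 62 to 292 CDS counts in the isoform libraries and at most 2 in its 3' UTR.

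The genes with a lower CDS had shorter coding sequences. The 14 CDS lower with exon 5 had a median length of 602 bases and the 8 without exon 5 one of 830 bases. Ppia, the cytosolic prolyl isomerase cyclophilin A, had 21, 27 and 27 CDS counts in the inputs, 0, 0 and 4 with exon 5 and 0, 0 and 16 without exon 5. Its CDS fell by 6.60 ± 1.79 and by 5.17 ± 1.64 (SE) on the log2 scale, with adjusted p of 0.0286 and 0.0467 in edgeR's quasi-likelihood test. The 3' UTR of Ppia, with 24, 34 and 22 counts with exon 5, 15, 28 and 86 without exon 5 and 9, 52 and 16 in the inputs, was better covered in the isoform libraries than its CDS. Its log2 fold changes of -2.12 and -1.89 did not pass (adjusted p 0.210 and 0.265, same test). Bsg, a chaperone of lactate transporters, passed in both comparisons, and Tpt1 and Naca passed without exon 5 only, which does not show that the isoforms differ.

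The CDS calls rest on all 9 libraries fitted together and on TMM scaling, without which 61 passed with exon 5 and 46 without exon 5. When only the 2 groups compared entered the fit, 0 CDS of short-3' UTR genes passed in either comparison. Leaving out replicate 1, 2 or 3 with exon 5 left 17, 7 and 6 calls in the comparison with exon 5. Leaving out replicate 1, 2 or 3 without exon 5 left 19, 1 and 0 in the other. Of all tested CDS, 2.25%, 0.880% and 0.828% were then higher in the former and 2.38%, 0.323% and 0.0698% in the latter. Without input replicate 2 there were 260 and 246 calls, where 28.5% and 28.2% of all tested CDS were higher.

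Within genes, the 3' UTR count was tested against the CDS count of the same library, which removes the level of the gene. Of 997 short-3' UTR genes tested, 0 passed in either direction, where 0.0404% of all 7432 were higher and 0.404% lower. On simulated data this within-gene test recovered 0 of 67 genes changed 4-fold, 1 of 67 at 16-fold and 10 of 66 at 64-fold. It misses most changes of these sizes, so its 0 calls do not show that there were none. At an unadjusted p under 0.05 there were 62 of the 997 and 984 of all 7432. The smallest adjusted p among the 997 was 0.0723 in edgeR's quasi-likelihood test, for Srgap2. The median log2 change of 3' UTR relative to CDS, isoforms over inputs, was 0.44 in the short class and -0.93 over all tested genes. The sign of the short-class median is opposite to that of the class sums above. It turned to -0.19 without the filter on low counts and to -0.28, -1.62 and -0.12 without input replicates 1, 2 and 3, so it has no settled direction. Leaving out those inputs also gave 11, 8 and 4 calls among the short-3' UTR genes. Of all tested genes, 0.3945%, 0.8551% and 0.3059% were then higher and 2.54%, 2.84% and 1.98% lower.

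No short 3' UTR passed the test between the isoforms, and most could not be tested. With exon 5 over without exon 5, 0 of 274 short 3' UTRs passed in edgeR's quasi-likelihood test (0% of all 5037 tested), and the smallest adjusted p was 0.999. At an unadjusted p under 0.05 there were 15 of the 274 and 99 of all. The median log2 difference was 0.03 for the short class and 0.04 for all. The CDS of the same genes gave 0 of 839 (16 unadjusted, and 82 of all 6505). The 3' UTR relative to the CDS gave 0 of 997 (30 unadjusted, and 143 of all 7432). DESeq2 and the other alternatives also gave 0 here, except for 1 higher 3' UTR when no filter on low counts was used. Groups can be apart without passing. The 3' UTR of U2af1 had 0, 2 and 1 counts with exon 5 and 22, 7 and 26 without exon 5. These groups do not overlap (adjusted p 0.999, edgeR's quasi-likelihood test). With 3 libraries per group, some 3' UTRs separate in this way without any difference between the isoforms. How many did so is not given here, so this example is no sign of an isoform difference.

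Across the 1618 short 3' UTRs, libraries of the same isoform were hardly more alike than libraries of different isoforms. Pearson's r of log2 CPM was 0.509 to 0.536 within the group with exon 5, 0.550 to 0.670 within the group without exon 5 and 0.488 to 0.589 between them. It was 0.115 to 0.218 between isoform libraries and inputs and 0.235 to 0.328 among the inputs. These values are descriptions over regions, many with 0 counts in both libraries, and they move with depth.

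The authors' deposited table gives a class per gene part, from a log2 difference between the isoforms and the same direction in all replicates. It holds 105 of the short 3' UTRs, of which 24 (22.9%) are classed for the isoform without exon 5, 7 (6.67%) for the isoform with exon 5 and 74 (70.5%) for both. Over the 2787 3' UTRs of that table the shares are 10.1%, 9.87% and 80.0%. Ddx39b, Cct3, H2az1, Setd6 and Xrcc6 are among the 24, and Eprs is among the 7. In the authors' deposited table Ddx39b has a log2 value of -1.11 and Eprs one of 1.78. The classes come with no p-value, and no 3' UTR among them passed the test above.

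Among mRNA export genes, 5 of the 6 named ones with a short 3' UTR had a count: Ddx39b, Sarnp, Ncbp1, Thoc5 and Nxt1. Ddx39b, the helicase of the TREX complex to which Chtop belongs, lies on chromosome 17 from 35241746 to 35253707 and has a 3' UTR of 221 bases. It had 40, 16 and 51 counts with exon 5, 66, 86 and 83 without exon 5 and 0 in all inputs. All 6 isoform libraries were above the inputs, and in CPM each library without exon 5 was above each with exon 5, the closest values being nearly equal. That order depends on TMM. Relative to unscaled library totals, replicate 1 with exon 5 stood above replicate 3 without exon 5, so the isoform groups overlapped. The means of 42.6 ± 17.7 and 93.5 ± 32.3 CPM (SD, n = 3 each) were at least 2.30-fold and 5.05-fold above the input level of 3 counts, with adjusted p of 0.0705 and 0.0524 in edgeR's quasi-likelihood test. Between the isoforms the adjusted p was 0.999. Sarnp, a partner of Ddx39b in TREX, had 106 of its 3' UTR counts in replicate 3 with exon 5 and 29 in input replicate 1, and Thoc5, a THO subunit, had counts in 2 isoform libraries only.

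Genes of the cytosolic ribosome had lower 3' UTR densities in nearly all immunoprecipitates than in the inputs. Of 49 named genes with a 3' UTR length, 37 had a short 3' UTR and 20 a count. Per kilobase, the summed 3' UTRs had 52.1, 67.5 and 63.3 CPM in the inputs and 18.2, 24.1 and 3.47 CPM without exon 5. With exon 5 they had 4.87, 23.9 and 207 CPM, and without Rpl22l1 the mean with exon 5 was 10.6 ± 12.2 (SD, n = 3). Every input thus lay above each isoform library except the one that held Rpl22l1. The CDS of these genes followed the same order, with 61.8 to 133 CPM per kilobase in the inputs and 17.0 to 34.4 in the isoform libraries. None of the 20 3' UTRs passed the filter.

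Genes of oxidative phosphorylation showed a like order in the CDS and not in the 3' UTR. Of their 13 counted short 3' UTRs, 1 was tested, that of Atp5a1, and it did not pass. CDS density was 66.4 to 85.7 CPM per kilobase in the inputs and 19.4 to 37.7 in the isoform libraries, and Atp5b, the catalytic beta subunit of ATP synthase, was lower than input with exon 5 (adjusted p 0.0335, edgeR's quasi-likelihood test). The 17 mitochondrial ribosomal protein genes had 161, 227 and 14 3' UTR counts with exon 5, without exon 5 and in the inputs, all 14 of them in input replicate 2. Among 8 proteasome genes the sums were 116, 145 and 48 counts, and 7 genes of Sm, Lsm and snRNP proteins had 86, 44 and 0.

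Chaperone genes stood highest in the inputs. Their 7 short 3' UTRs had 264, 346 and 83.4 CPM per kilobase in the inputs, 49.4, 33.1 and 29.7 with exon 5 and 74.8, 76.8 and 66.9 without exon 5, with Hsp90b1 supplying most input counts. All inputs were above all isoform libraries, by little for input replicate 3. Of 3 tested, none passed, and their median log2 fold changes were -2.37 and -1.93.

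Zfp zinc finger genes, many of them transcriptional repressors, had the opposite order. Only 37 of 256 named Zfp genes had a short 3' UTR, and 22 had a count. Their 3' UTRs held 25.8 to 49.3 CPM per kilobase with exon 5, 25.04 to 40.6 without exon 5 and 0.894, 18.7 and 0 in the inputs. The CDS of these genes had 33.7 to 50.3 CPM per kilobase in the isoform libraries and 6.32 to 8.92 in the inputs. In neither part did isoform and input libraries overlap, with or without TMM. In the CDS the same held for the short class as a whole. Zfp970 had 13, 37 and 62 3' UTR counts with exon 5, 20, 11 and 88 without exon 5 and 0 in the inputs, and did not pass (adjusted p 0.0748 and 0.0814, edgeR's quasi-likelihood test). Of the list's 4 tested 3' UTRs none passed, and of 12 tested CDS, Zfp106 and Zfp57 were higher than input in both comparisons.

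The CDS of chromatin regulators was also higher in all isoform libraries than in the inputs, with or without TMM. This order was not particular to the list. The CDS of the whole short class had 30.1 to 34.1 CPM per kilobase in the isoform libraries and 11.5 to 22.7 in the inputs. That of the 5 mRNA export genes had 72.8 to 124.7 and 0 to 56.9. Neither overlapped without TMM. The CDS of 7 chromatin genes had 63.4 to 75.8 CPM per kilobase in the isoform libraries and 3.20 to 18.1 in the inputs, and Kmt2c and Setd6 passed in both comparisons. Kmt2c, a histone H3 lysine 4 methyltransferase, had 25, 24 and 76 3' UTR counts with exon 5, 15, 29 and 110 without exon 5 and 0 in the inputs, in a 3' UTR of 205 bases. Its CDS log2 fold changes were 3.73 ± 0.69 and 3.49 ± 0.69 (SE), with adjusted p of 0.0110 and 0.0132 in edgeR's quasi-likelihood test, and those of its 3' UTR did not pass (0.0707 and 0.0709). All input counts in the 3' UTRs of this list were the 209 of Chd8 in replicate 3. For DNA repair, 10 short 3' UTRs had 75, 192 and 3 counts in the 3 groups, and the CDS of Msh6, a mismatch repair protein, passed in both comparisons.

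In the other lists no 3' UTR passed, and in the 3' UTR the inputs overlapped the isoform libraries. In the CDS, aminoacyl-tRNA synthetase genes had 58.4 to 83.2 CPM per kilobase in the isoform libraries and 14.2 to 47.3 in the inputs, and RNA polymerase and general transcription genes 27.0 to 35.6 and 4.41 to 26.3. Without TMM both lists overlapped. The CDS of Cars2, a mitochondrial cysteinyl-tRNA synthetase, and of Polrmt, the mitochondrial RNA polymerase, passed as higher than input in both comparisons. The 11 translation factor genes were the densest of the lists in the isoform groups, at 159 ± 99.4 CPM per kilobase with exon 5, 97.9 ± 5.25 without exon 5 and 83.4 ± 18.7 in the inputs (SD, n = 3 each). Eif4g1 and Eef2 supplied most of these counts. Taf15, a FET-family RNA-binding protein, had 46, 51 and 55 3' UTR counts with exon 5, 18, 52 and 91 without exon 5 and 0 in all inputs, and did not pass (adjusted p 0.0644 and 0.0664, edgeR's quasi-likelihood test). The 10 aminoacyl-tRNA synthetase genes had 288, 201 and 80 3' UTR counts with exon 5, without exon 5 and in the inputs, the 6 tubulin and actin-related genes 77, 184 and 62, and the 8 genes listed for the V-ATPase and secretion 107, 223 and 43. That last list includes Ssrp1, a chromatin protein whose symbol only shares its first letters with the list. The only histone gene was H2az1, a replacement variant, with 46, 142 and 28 counts.

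**Figure D5:**
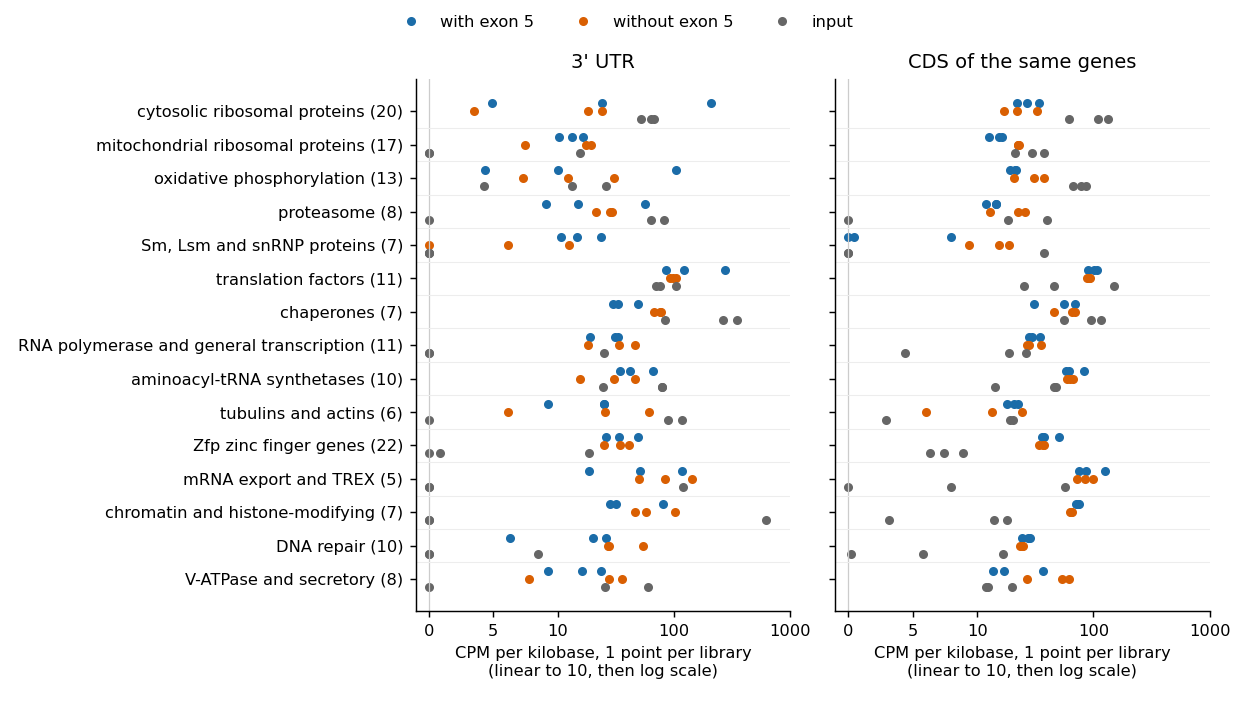
CPM per kilobase summed over each gene list (horizontal axis, linear to 10 and logarithmic above) for short 3' UTRs (left) and the CDS of the same genes (right), 1 point per library, for lists of 5 or more genes with the number of genes in brackets. Inputs (grey) lie to the left of the isoform libraries for Zfp genes in both panels, and to their right for chaperones in the 3' UTR and for cytosolic ribosomal proteins in the CDS.

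The genes nearest to the limit of 500 bases are given as a description. Bin1, a membrane-bending adaptor with a 3' UTR of 498 bases, had 54, 20 and 78 counts with exon 5, 38, 52 and 112 without exon 5 and 0, 0 and 16 in the inputs. Maged1, with 496 bases, had 8, 8 and 93, then 22, 58 and 81, and 0, 0 and 18. Just outside, Noc2l (500 bases) had 68, 32 and 154, then 26, 62 and 144, and 0 in the inputs, and Atg2a (501 bases) had 13, 0 and 71, then 8, 0 and 64, and 0 in the inputs.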

How the data were processed

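Per gene, the authors deposited raw counts in 5' UTR, CDS, 3' UTR and their sum, with part lengths in bases, per the file headers. The submitters' processing notes name mm10, TopHat2 and DESeq2. The labels describe no counting tool, strand setting or removal of duplicate reads. The authors' deposited log2 fold changes and isoform classes were copied, not retested. In all, 27 other columns of per-sample values were not used. The labels call replicates independent and processed on separate days.

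The main test was the robust quasi-likelihood fit of edgeR 4.0.16 (R 4.3.3) on each whole table with all 9 libraries, no covariate, library sizes and TMM factors from the gene totals, filterByExpr (minimum count 10, total 15) and Benjamini-Hochberg adjustment over all genes at 0.05. 3' UTR against CDS within genes used 18 columns with library effects. Densities are summed CPM over summed kilobases. Where inputs were all 0, a bound uses 3 counts per input. Checked on simulated data for 3' UTRs with exon 5 over input (5179 genes), the test recovered 1 of 67 genes changed 4-fold, 20 of 67 at 16-fold and 42 of 66 at 64-fold, with 3 false calls. For the CDS it recovered 0, 16 and 34 at these folds, with 4 false calls. The within-gene test recovered 0, 1 and 10, with 0 false calls. In the inputs replicate numbers differ between titles and column names, so columns were matched by primer and cDNA. Members, lists and naming rules (levels, densities, calls, list ranks, nearest to the limit) were chosen with earlier results of these data known. Of 1174 named members, 1170 were matched to RefSeq's GRCm38.p6 table for positions. The 444 members without a symbol were tested but, except 1, not named.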

Additional observations from a re-analysis of the deposited data

How the results depend on the processing

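Counts of short-3' UTR genes called against input moved with scaling, tool, filter and library. For the 3' UTR with exon 5 (1 call) and without exon 5 (1 call), TMM within the 3' UTR table gave 34 and 37, DESeq2 51 and 43, and no filter on low counts 21 and 8. Library totals without TMM gave 2 with exon 5. For the CDS (129 and 116 calls), library totals without TMM gave 61 and 46, DESeq2 216 and 198, and fitting only the groups compared 0 and 0. For the 3' UTR relative to the CDS (0 calls), diffSpliceDGE and no filter each gave 1. Between the isoforms, no filter gave 1 call in the 3' UTR. The causes were not tested.

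With the replicate block the calls were 5 and 2 in the 3' UTR and 54 and 46 in the CDS. Of all tested 3' UTRs, 0.814% and 0.8735% were then higher and 0.298% and 0.218% lower. Of all tested CDS, 6.67% and 6.10% were higher and 0.354% and 0.231% lower. With the replicate block by column names (chosen after seeing the data) the calls were 3 and 2 in the 3' UTR, 59 and 55 in the CDS, and 1 for the 3' UTR relative to the CDS. Deviations of same-numbered libraries correlated at -0.0007 to 0.055, and those of differently numbered ones at -0.033 to 0.026. The highest values, 0.055, 0.043 and 0.042, were all between libraries of replicate 3.

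Leaving out 1 library at a time gave 0 to 26 and 0 to 12 calls in the 3' UTR, 6 to 260 and 0 to 246 in the CDS, and 0 to 11 for the 3' UTR relative to the CDS. Between the isoforms it gave 0 in each.

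Over all 4893 short genes, the 3' UTR share was 11.0% with exon 5 and 11.8% without, and the density ratio 0.712 and 0.770. The median ratio over genes with counts in both parts was 1.71 with exon 5, 1.49 without and 3.14 in the inputs. Among values of single genes, 8273 kept their direction and their side of the threshold, 166 newly passed, 214 no longer passed and 0 reversed. Input totals of 75504 to 173342 counts limit all comparisons with input.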

Other observations

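After TMM scaling, the 5' UTRs of the same genes did not separate the groups. A 5' UTR count was found for 621 of the 1618 genes, and their summed level was 4719 ± 302 CPM with exon 5, 5138 ± 330 without exon 5 and 5061 ± 609 in the inputs (SD, n = 3 each). The raw counts were 3100, 3294 and 5375 with exon 5, 2750, 4132 and 7864 without exon 5, and 933, 950 and 625 in the shallower inputs. Relative to unscaled library totals, or to the CDS counts of the same genes, every input lay above every isoform library.

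Among the 3275 genes with a short 3' UTR and no 3' UTR count, 667 had a CDS count and 359 had 15 or more. A short 3' UTR without counts thus often belonged to a gene with no CDS count either, though not always.

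Of the short 3' UTRs, 137 had counts in all 6 isoform libraries and held 40.0% of the class's isoform counts. Their median 3' UTR was 374 bases and their median CDS 1818 bases, and 71 of them had no input count.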
